A study of Mus musculus with 6 samples.

Results

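The Hox cluster genes were described in epithelial cells from the bulge of mouse hair follicles after culture. A gene was taken as a member where an array probe set was listed with 1 symbol and that symbol was Hoxa, Hoxb, Hoxc or Hoxd with a number. By this rule 33 Hox genes were measured among 18193 genes, through 48 of 45037 probe sets. They were 9 Hoxa, 9 Hoxb, 7 Hoxc and 8 Hoxd genes. The expression of Hox genes without a probe set under their own name alone was not analysed here.

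Bulge cells were isolated by microdissection and enzyme treatment from vibrissa (whisker) follicles of mice aged 7 to 8 weeks, and in every repeat the cells were split over NFFSE and NFFS medium. Noggin, which blocks BMP, the hedgehog agonist SAG, FGF-7 and FGF-10 were present in both media at 50 ng/ml each. EGF, at 50 ng/ml, was present in NFFSE medium and absent from NFFS medium. The cells were embedded in atelocollagen gel at 1% for 6 days, the experiment was performed 3 times, and each culture gave 1 array, 3 for each medium. The strain of the mice behind the arrays, and whether follicles of several mice were pooled in a repeat, are not given in the sources used here.

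Hox genes encode homeodomain transcription factors and lie in clusters, in which the order of the genes follows the order of their expression along the body axis. Genes of different clusters that descend from 1 ancestor share a number and form a paralog group. Most of the mesenchyme of the face comes from neural crest that does not express Hox genes, whereas trunk skin keeps Hox expression that differs with position. Hoxc13 is known as a factor of the hair shaft and nail, which binds the promoters of hair keratin genes and of Foxn1.

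The values are the authors' MAS5 signals, 1 intensity for each probe set on a linear scale, and a difference between media is log2 NFFSE minus log2 NFFS. The highest of 18 signals of the TrpnX control probe sets, which are made for a bacterial transcript that mouse cells do not have, was 22.7, and a signal at or under this value was read as background. Each probe set has its own affinity, so that expression levels were not compared between genes. The marker sums given below add signals of several genes, so that bright probe sets weigh most in them. The fit with limma over all genes called 26.5% of them at an adjusted p threshold of 0.05, 11.1% as higher and 15.4% as lower in NFFSE, or 2021 and 2805 genes. With each array centered on its median the split was 2920 higher and 1816 lower. The 9 epithelial and 7 bulge markers of the labelled cells all lay above background on all 6 arrays, as did 66.1% of all genes. Passing this threshold does not by itself identify a cell type. Of the bulge markers, Cd34 was called higher and the other 6 lower in NFFSE.

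A single Hox gene of the 33, Hoxc13, was called, beside 26.5% of all genes. It was called lower in NFFSE, as were 15.4% of all genes. The other 32 measured Hox genes were not called in either direction. Background signals were frequent among Hox genes, since 6 of 33 (18.2%) were above background on all 6 arrays, beside 66.1% of all genes. Conversely 10 Hox genes (30.3%) were above it on no array, beside 9.29% of all genes. The remaining 17 Hox genes were above background on 1 to 5 arrays, and between 13 and 15 Hox genes were above it on any 1 array. On all 3 arrays of a medium it was 8 Hox genes in NFFSE and 9 in NFFS. These counts were 14 and 9 when each array was read against its own highest TrpnX signal. That signal was 6.45 on NFFSE array 2 and 14.6 to 22.7 on the other arrays, so that genes passed most easily on NFFSE array 2.

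**Figure D1:**
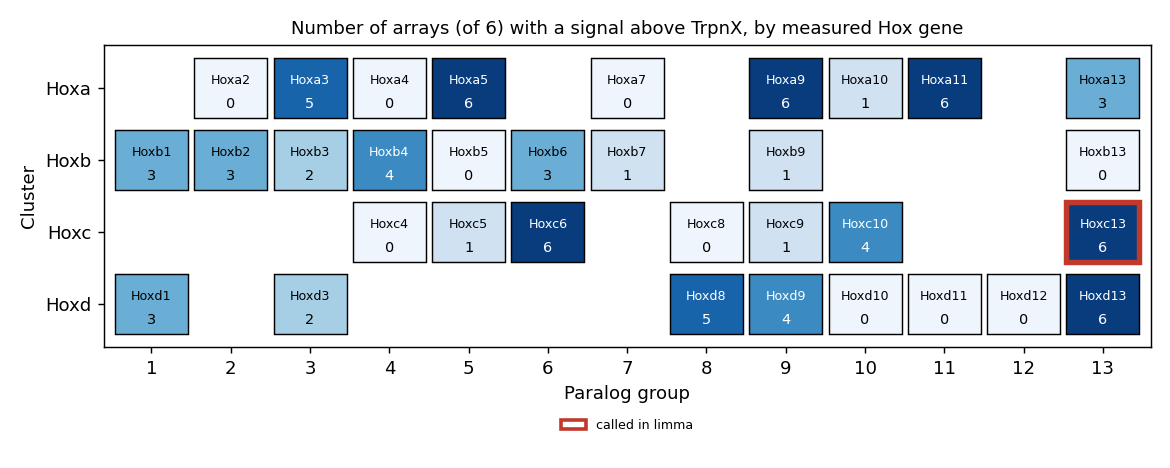
Each tile is a measured Hox gene, placed by its cluster (rows) and its paralog group (columns), with the number of arrays out of 6 on which its signal was above the highest TrpnX signal. The red frame marks Hoxc13, the 1 gene called in limma. Hoxa5, Hoxa9, Hoxa11, Hoxc6, Hoxc13 and Hoxd13 reached 6 arrays, in the brightest probe set of each gene, and Hoxa3 also did so through another of its probe sets.

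Hoxc13, read from its 1 probe set, 1425874_at, gave signals of 136.7, 121.0 and 121.4 on the NFFSE arrays of repeats 1, 2 and 3. On the NFFS arrays its signals were 906.3, 684.6 and 689.3. Every NFFS array was above every NFFSE array, and the lowest NFFSE signal was still above background. The mean of the 3 NFFSE arrays was 126 ± 8.93 (SD) and that of the 3 NFFS arrays 760 ± 127 (SD). This was a log2 difference of -2.58 with a standard error of 0.17 (limma, adjusted p = 5.85e-06), or 5.97-fold lower in NFFSE. Within the repeats the difference was -2.73, -2.50 and -2.51, so that Hoxc13 was lower in NFFSE in 3 of 3 repeats. Among all genes, 314 (1.73%) had a log2 difference as low as this or lower. These are bulk cultures, in which fewer cells that express a gene and less RNA per cell cannot be told apart.

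Other measurements moved with the medium beside Hoxc13. The 7 bulge markers summed to 8841 to 9482 in NFFSE and 15364 to 23911 in NFFS. The 9 epithelial markers summed to 129799 to 148459 in NFFSE and 112543 to 125399 in NFFS. Of these 9, 5 were called higher and 1 lower in NFFSE. The lower one was Krt15, at 3.94-fold (limma, adjusted p = 7.81e-05). The summed signal of 14 fibroblast and dermal papilla markers was 2937 to 3056 on the NFFSE arrays and 6728 to 7865 on the NFFS arrays, where 5 of the 14 markers were called lower and 1 higher in NFFSE. Sparc made up most of this sum, and without it the other 13 markers summed to 755 to 829 in NFFSE and 888 to 1114 in NFFS. Twist1 was at background on all arrays. The 5 measured markers of smooth muscle and Schwann cells summed to 215 to 285 in NFFSE and 1094 to 1193 in NFFS, with 2 called lower and 1 higher. Without Tagln, the brightest of them, the other 4 summed to 210 to 261 in NFFSE and 453 to 589 in NFFS. Of 7 melanocyte, 6 leukocyte, 4 endothelial and 4 Merkel cell markers 0 were called. Among all genes 26.5% were called, 15.4% lower and 11.1% higher. At an unadjusted p under 0.05 in limma there were 0, 0, 1 and 0, beside 35.8% of all genes. Above background on all 6 arrays were 3, 2, 2 and 1 of these markers, and Mlana, Cd3e and Cd52 were at background on all arrays. Counts of 0 from such signals do not show that these cell types were unchanged. For Gapdh, the log2 of the 3′ control signal over the 5′ control signal, a reading of RNA integrity, had a mean of -0.37 in NFFSE (SD 0.011, n = 3). In NFFS this mean was -0.62 (SD 0.017, n = 3), and 3 against 3 arrays gave the lowest p they allow in an exact two-sided permutation test (p = 0.1). The same measure for Actb was 0.27 in NFFSE (SD 0.019, n = 3) and 0.33 in NFFS (SD 0.059, n = 3), higher in NFFS where that of Gapdh was lower, with overlapping media (exact permutation test, p = 0.3). The part of these measures in the difference of Hoxc13 was not tested.

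Besides Hoxc13, 10 Hox genes were above background on all 3 arrays of at least 1 medium, and 0 of them were called. By role along the axis, they were Hoxa3 and Hoxb1 of the anterior paralog groups 1 to 3, Hoxa5, Hoxb4, Hoxc6 and Hoxd8 of groups 4 to 8, and Hoxa9, Hoxa11, Hoxd9 and Hoxd13 of the posterior groups 9 to 13. Among all genes 75.9% met this condition, beside 11 of 33 Hox genes (33.3%) with Hoxc13 counted.

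**Figure D2:**
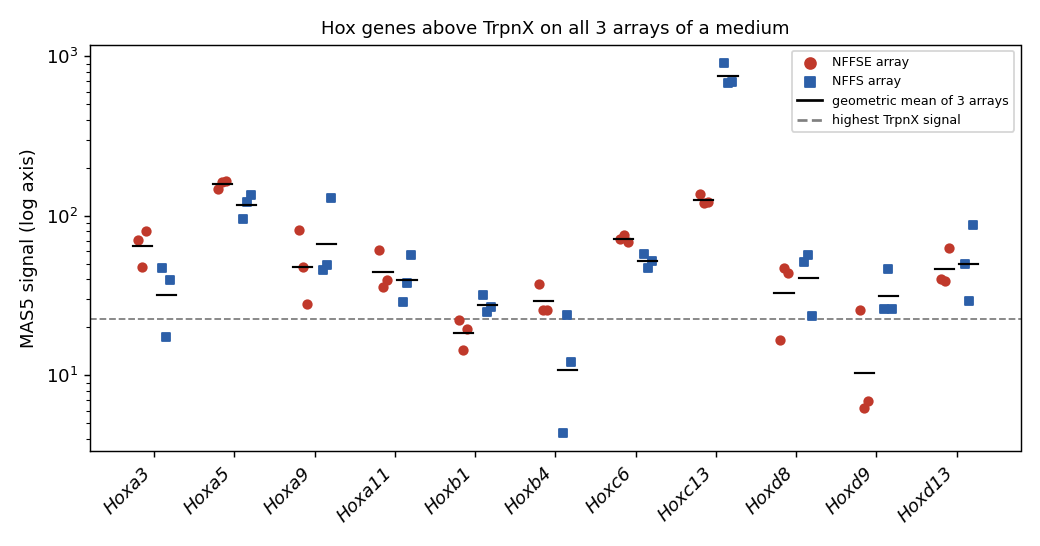
Signals of the 11 Hox genes above background on all 3 arrays of a medium (log axis), with a circle for each NFFSE array, a square for each NFFS array, a bar for the geometric mean of 3 arrays and a dashed line at the highest TrpnX signal of 22.7. Hoxc13 has its NFFS arrays at 684.6 to 906.3, well apart from its NFFSE arrays at 121.0 to 136.7, while most other genes lie near the line with overlapping or close media.

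In the anterior groups, Hoxa3, which patterns pharyngeal organs such as the thymus, gave 70.6, 47.7 and 80.8 in NFFSE and 46.9, 17.3 and 39.6 in NFFS. The lowest NFFSE array was just above the highest NFFS array. The log2 difference was 1.03 with a standard error of 0.48 (limma, adjusted p = 0.157). A second Hoxa3 probe set, 1431392_at, was above background on all 6 arrays, at 39.8, 47.4 and 67.8 in NFFSE and 41.5, 35.4 and 59.4 in NFFS, with overlapping media and a log2 difference of 0.18. Hoxb1, a factor of hindbrain identity, gave 22.2, 14.3 and 19.5 in NFFSE, all at background, and 31.8, 24.8 and 26.7 in NFFS. Its media did not overlap in the opposite direction, with a log2 difference of -0.59 and a standard error of 0.50 (adjusted p = 0.450), and NFFS was at least 1.22-fold higher when NFFSE arrays were set to 22.7.

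Among groups 4 to 8, Hoxa5, which acts in lung and axial skeleton development, gave 146.9, 163.5 and 165.1 in NFFSE and 95.4, 122.8 and 134.7 in NFFS. All NFFSE arrays were higher, but the log2 difference of 0.44 with a standard error of 0.24 did not pass the threshold (limma, adjusted p = 0.217). This was read from 1443803_x_at, whose suffix marks probes that may also match other transcripts. The other Hoxa5 probe set, 1448926_at, was above background on 1 of 6 arrays. Hoxc6, a factor of thoracic identity, gave 71.6, 76.4 and 68.1 in NFFSE and 57.4, 47.2 and 52.2 in NFFS, again without overlap and again from a probe set of this kind, 1427362_x_at. Its log2 difference was 0.47 with a standard error of 0.32 (adjusted p = 0.343), and it was called with signals under 22.7 set to that value (adjusted p = 0.0435) and in the methods' t-test with Benjamini-Hochberg adjustment (0.0485). A second Hoxc6 probe set without this suffix, 1427361_at, was also above background on all 6 arrays, at 51.9, 40.7 and 52.2 in NFFSE and 27.9, 56.4 and 75.9 in NFFS, with overlapping media. The third, 1427454_at, was at background on all arrays.

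Hoxb4, known for its effect on blood stem cells when overexpressed, gave 37.4, 25.7 and 25.6 in NFFSE and 4.36, 24.0 and 12.2 in NFFS, of which 1 of 3 NFFS arrays was above background. The media did not overlap, and the log2 difference was 1.43 with a standard error of 0.70 (limma, adjusted p = 0.177). Hoxd8 gave 16.7, 47.4 and 43.8 in NFFSE and 51.2, 56.5 and 23.5 in NFFS, with 1 low array in each medium and overlap between them.

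Of the posterior genes, Hoxd9 gave 25.8, 6.26 and 6.91 in NFFSE and 26.0, 46.1 and 26.0 in NFFS. A single NFFSE array was above background, and it lay close under the NFFS arrays. The log2 difference was -1.60 with a standard error of 0.69 (limma, adjusted p = 0.122), and without NFFSE replicate 1 it was -2.26 with an adjusted p of 0.0349. Hoxa9, a regulator of blood cell growth, gave 82.1, 48.0 and 28.0 in NFFSE and 45.97, 49.2 and 129.0 in NFFS. Hoxa11, which acts in the limb and uterus, gave 61.5, 36.0 and 39.7 in NFFSE and 28.8, 38.1 and 57.0 in NFFS. Hoxd13, a factor of digit formation, gave 40.3, 39.3 and 62.7 in NFFSE and 49.6, 29.4 and 87.3 in NFFS. The media overlapped in all of Hoxa9, Hoxa11 and Hoxd13, and the replicates of 1 medium spread as far as the media differed, with 95% intervals of the log2 difference of -1.65 to 0.72, -0.82 to 1.15 and -1.18 to 0.94.

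The remaining 22 Hox genes were not above background on all 3 arrays of either medium. Hoxa2, Hoxa4, Hoxa7, Hoxb5, Hoxb13, Hoxc4, Hoxc8, Hoxd10, Hoxd11 and Hoxd12 were at background on all 6 arrays. Hoxa10, Hoxb7, Hoxb9, Hoxc5 and Hoxc9 were above it on 1 array, Hoxb3 and Hoxd3 on 2, Hoxa13, Hoxb2, Hoxb6 and Hoxd1 on 3 and Hoxc10 on 4. Of these genes Hoxd11 and Hoxb9 had the lowest adjusted p, 0.0684 and 0.0729. Hoxd11 was at background throughout, with 21.7 as its highest signal, and the highest Hoxb9 signal was 27.03, so that no fold was read from either. Hoxd1, at 20.5, 29.8 and 30.6 in NFFSE and 1.04, 23.3 and 7.41 in NFFS, was not called (log2 difference 2.23, adjusted p = 0.148), and without NFFS replicate 2 it was (3.26, adjusted p = 0.0338). Over the 33 genes, media did not overlap for 12 (36.4%), 8 higher and 4 lower in NFFSE, beside 40.8% of all genes. An unadjusted p under 0.05 was found for 5 Hox genes (15.2%), beside 35.8% of all genes. The median log2 difference was 0.02 for the Hox genes and -0.01 for all genes. The median standard error was 0.72 for Hox genes and 0.27 for all genes, so that the intervals of most Hox genes were wide.

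**Figure D3:**
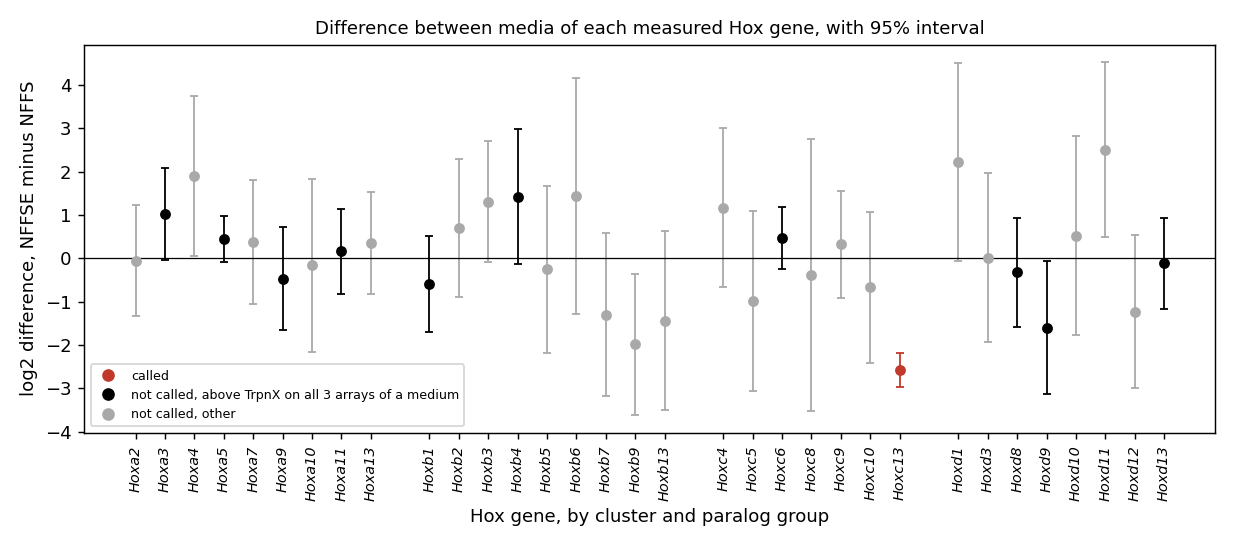
Log2 difference between media (NFFSE minus NFFS) of each of the 33 measured Hox genes, by cluster and paralog group, with its 95% interval from limma. Hoxc13 (red) is at -2.58 with a narrow interval, genes above background on all 3 arrays of a medium are black, and the other genes (grey) have wide intervals, most of which cross 0.

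By cluster, the called gene lay in Hoxc, and the Hoxa, Hoxb and Hoxd clusters held 0 called genes. Above background on all 6 arrays were 3 of 9 Hoxa, 0 of 9 Hoxb, 2 of 7 Hoxc and 1 of 8 Hoxd genes. Of the other paralogs of group 13, Hoxa13 (31.8, 17.8 and 31.0 in NFFSE, 14.5, 21.8 and 26.3 in NFFS) and Hoxd13 gave overlapping media, and Hoxb13 was at background. The other measured Hoxc genes of the posterior groups, Hoxc9 and Hoxc10, overlapped between media as well. Hoxc11 and Hoxc12 had no probe set and were not measured. The fit over probe sets called 1 of the 48 Hox probe sets, that of Hoxc13, beside 20.4% of all probe sets (7.69% higher, 12.7% lower), and the next lowest adjusted p was 0.0783. Media did not overlap for 13 Hox probe sets, 9 higher and 4 lower in NFFSE, beside 36.2% of all probe sets. Of 11 Hox genes with several probe sets, 6 had the same sign of difference in all of them and 5 (Hoxa9, Hoxb4, Hoxc5, Hoxc6 and Hoxd13) did not.

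Promoter sequences were read from RefSeq (GRCm38.p6) for 1 member of each direction among those whose media did not overlap, Hoxa5 (higher in NFFSE) and Hoxb1 (lower), neither of them called, to show the stretch before their starts. The table used held 24 such windows of 250 bases for 22 Hox genes, and Hoxc13 was not among them. Of these, 21 windows were of 19 measured Hox genes, and the motif shares below cover all 24. Capitals mark matches to the motifs searched on both strands. The Hoxa5 window is chr6:52204588-52204837 on the minus strand and the Hoxb1 window is chr11:96365508-96365757 on the plus strand.
Hoxa5: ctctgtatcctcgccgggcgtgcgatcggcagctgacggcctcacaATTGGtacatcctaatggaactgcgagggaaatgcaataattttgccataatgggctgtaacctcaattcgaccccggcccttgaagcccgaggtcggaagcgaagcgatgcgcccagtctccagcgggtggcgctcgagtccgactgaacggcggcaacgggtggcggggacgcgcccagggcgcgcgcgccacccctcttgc
Hoxb1: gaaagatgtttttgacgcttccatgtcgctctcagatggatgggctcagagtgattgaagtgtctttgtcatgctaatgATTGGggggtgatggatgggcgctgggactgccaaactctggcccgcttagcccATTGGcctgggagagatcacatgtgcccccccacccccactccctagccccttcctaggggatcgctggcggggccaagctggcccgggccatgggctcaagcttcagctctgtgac
The Hoxa5 window held CCAAT, the CCAAT box, 204 bases before the start, and the Hoxb1 window held this motif at 171 and 117 bases. It was found in 14 of 24 Hox windows (58.3%) and in 33.8% of 32851 windows of all genes. The TATA box, TATAAA, was found in 4 Hox windows (16.7%, all genes 12.4%). The GC box, GGGCGG, was found in 10 (41.7%, all genes 32.7%). A TCF/LEF site, CTTTGAT, was found in 1 (4.17%, all genes 3.21%). An AP-1 site, TGANTCA, was also found in 1 (4.17%, all genes 6.75%). A site of Hox-Pbx pairs, TGATTNAT, was found in 2 (8.33%, all genes 2.82%). The median GC content was 58.6% in the 24 Hox windows, 59.2% in the 21 of measured Hox genes and 52.4% in all windows. A match describes these letters and not a bound site.

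Hox proteins bind DNA together with homeodomain proteins of the TALE class, which raise their specificity. Of the 9 TALE cofactors listed, 8 were measured, and 4 were called lower and 0 higher in NFFSE. Among all genes 15.4% were called lower and 11.1% higher. Meis2, a direct partner of Hox proteins, gave 2113, 1536 and 1607 in NFFSE and 3797, 3201 and 3628 in NFFS. Its log2 difference was -1.03 with a standard error of 0.14 (limma, adjusted p = 0.000356), or 2.04-fold lower in NFFSE without overlap. Meis1, a cofactor of Hoxa9 in leukemia, gave 1164, 1005 and 1107 in NFFSE and 1795, 1770 and 2235 in NFFS (log2 difference -0.82, standard error 0.12, adjusted p = 0.000813). Pknox1, which pairs with Pbx proteins, gave 235.7, 259.1 and 266.1 in NFFSE and 601.6, 425.8 and 541.1 in NFFS (log2 difference -1.03, standard error 0.17, adjusted p = 0.00136). For each of Meis1, Meis2 and Pknox1 all NFFS arrays were above all NFFSE arrays, and the call was kept in 16 of 16 alternative settings.

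The call of Pbx2 was less stable. This partner of Hox proteins gave 796.4, 618.2 and 621.9 in NFFSE and 1233, 774.8 and 1037 in NFFS, with overlap between the media (log2 difference -0.56, standard error 0.18, limma, adjusted p = 0.0428). The call ended in 9 of 16 settings, which included arrays centered on their medians (adjusted p = 0.247), quantile normalization (0.0647) and the fits without NFFSE replicate 2 (0.147) or 3 (0.130) or NFFS replicate 1 (0.147) or 3 (0.115). Pbx3 was well above background and was not called, at 1719, 1688 and 1684 in NFFSE and 1659, 1479 and 1509 in NFFS (log2 difference 0.13, 95% interval -0.09 to 0.36). Pbx4, Meis3 and Pknox2 lay near background, with differences of 0.39, 0.98 and 0.39 that were not called. The median over the 8 cofactors was -0.22.

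**Figure D4:**
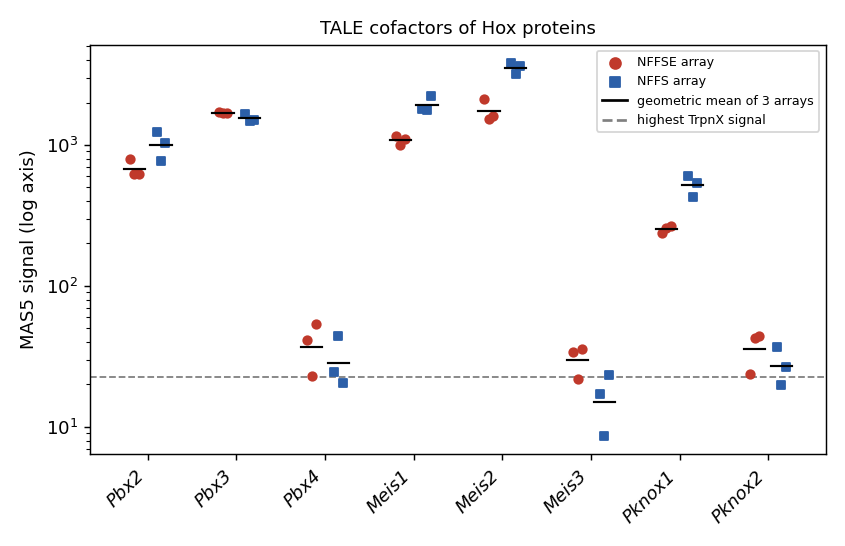
Signals of the 8 measured TALE cofactors (log axis), with a circle for each NFFSE array, a square for each NFFS array, a bar for the geometric mean of 3 arrays and a dashed line at the highest TrpnX signal. Meis1, Meis2 and Pknox1 lie lower in NFFSE without overlap, Pbx2 overlaps between the media, and Pbx4, Meis3 and Pknox2 lie near the dashed line.

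The windows of Meis1 (chr11:19018970-19019219, minus strand) and Meis2 (chr2:116064620-116064869, minus strand), from the same table, are shown as those of the called cofactors of the MEIS family.
Meis1: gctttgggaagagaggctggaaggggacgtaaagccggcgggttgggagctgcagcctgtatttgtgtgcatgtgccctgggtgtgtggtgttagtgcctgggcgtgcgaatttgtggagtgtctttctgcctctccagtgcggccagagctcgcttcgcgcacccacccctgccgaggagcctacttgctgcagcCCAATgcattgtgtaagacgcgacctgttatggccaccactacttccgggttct
Meis2: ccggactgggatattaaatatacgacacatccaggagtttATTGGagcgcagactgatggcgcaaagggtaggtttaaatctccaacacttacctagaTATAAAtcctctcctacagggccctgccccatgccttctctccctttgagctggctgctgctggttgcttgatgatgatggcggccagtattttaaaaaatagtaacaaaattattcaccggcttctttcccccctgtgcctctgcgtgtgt
The Meis1 window held CCAAT 54 bases before the start. In the Meis2 window a CCAAT box lay at 210 bases and a TATA box at 152 bases.

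Genes that set or keep Hox expression were read beside the clusters. Polycomb complexes keep Hox clusters silent. Of 21 measured members 5 were lower and 2 higher in NFFSE, beside 15.4% and 11.1% of all genes. Their median log2 difference was -0.21. Cbx6, a chromodomain subunit, was 3.58-fold lower (log2 difference -1.84, standard error 0.25, adjusted p = 0.000386), and Bmi1, a ring finger subunit, was 1.63-fold lower (log2 difference -0.71, standard error 0.10, adjusted p = 0.000418). Ezh1, a methyltransferase, averaged 303 ± 51.1 (SD) on the 3 NFFSE arrays and 605 ± 83.8 (SD) on the 3 NFFS arrays with its brightest probe set, and its call (lower) ended when all its probe sets were averaged (log2 difference -0.52, adjusted p = 0.366). Phc3 was 2.33-fold lower (adjusted p = 0.00486), which became 0.0550 with signals under 22.7 set to that value. Ezh2 was called lower, and Eed and Jarid2 higher, with log2 differences of -0.33, 0.60 and 0.55. The call of Ezh2 ended in 7 of 16 settings, among them arrays centered on their medians (log2 difference -0.13, adjusted p = 0.556) and the fits without NFFSE replicate 2 or 3 or NFFS replicate 1 or 3 (adjusted p 0.163, 0.130, 0.101 and 0.122). The calls of Eed and Jarid2 ended in 3 and 2 settings. The difference of Eed turned to -0.02 when all its probe sets were averaged.

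Trithorax proteins and the demethylases of H3K27 act against Polycomb. Of 11 measured members 3 were lower and 1 higher in NFFSE, beside 15.4% and 11.1% of all genes. Their median log2 difference was -0.29. Kdm6a, a demethylase, was 1.55-fold lower (log2 difference -0.64, adjusted p = 0.00354), and the methyltransferases Kmt2d and Kmt2a were 1.77-fold and 1.84-fold lower (adjusted p = 0.00566 and 0.0104). None of these 3 calls held with the mean of all probe sets of a gene (log2 differences -0.42, -0.26 and -0.42). Kdm6b was 1.49-fold higher (log2 difference 0.57, adjusted p = 0.0364), and its call ended in 8 of 16 settings.

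Retinoic acid and Cdx factors switch on Hox genes in the embryo. Of 16 measured upstream regulators 2 were lower and 1 higher in NFFSE, beside 15.4% and 11.1% of all genes. Aldh1a2, which makes retinoic acid, gave 5.23, 4.01 and 7.98 in NFFSE, all at background, and 55.8, 71.1 and 67.5 in NFFS, at least 2.84-fold lower in NFFSE (log2 difference -3.55, standard error 0.54, adjusted p = 0.000854). A second enzyme of this step, Aldh1a3, went the other way at 917.7, 784.5 and 663.2 in NFFSE and 331.2, 443.4 and 140.8 in NFFS (log2 difference 1.51, standard error 0.35, adjusted p = 0.00931). The receptor gene Rxra was 2.11-fold lower (adjusted p = 0.00311), a call that ended when all its probe sets were averaged (log2 difference -0.22). Rara was not called (log2 difference -0.66, adjusted p = 0.0771), and with the replicate number as a block it was called lower (adjusted p = 0.0411), which made 3 of 16 lower. The median over the 16 regulators was 0.09.

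Foxn1 and the hair keratins, listed here as genes downstream of Hoxc13, gave 1 call higher and 0 lower among 13 measured. Among all genes 11.1% were called higher and 15.4% lower. Of the 13, 3 were above background on all 6 arrays and 3 on none. Most genes behind the median log2 difference of 0.02 thus had background signals on at least 1 array. Whether each is a target of Hoxc13 in these cells was not tested. The called gene was Krt81, a hair keratin, at 264.0, 322.6 and 326.7 in NFFSE and 175.9, 176.0 and 233.1 in NFFS (log2 difference 0.65, standard error 0.20, adjusted p = 0.0329). Its call ended in 7 of 16 settings, among them those without NFFSE replicate 2 or 3 or NFFS replicate 1 or 2 (adjusted p 0.117, 0.103, 0.0924 and 0.0757). Foxn1, a regulator of keratinocyte differentiation, spread from 6.67 to 56.3 in NFFSE and from 6.60 to 32.2 in NFFS. Krt32 was above background on all arrays and not called (log2 difference -0.36, adjusted p = 0.289). Krt36 was at 3.88, 6.44 and 52.1 in NFFSE and at 39.8 to 43.9 in NFFS, with overlapping media (log2 difference -1.96, limma, adjusted p = 0.138). Krt33a, Krt82 and Krt86 were at background on all arrays.

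Homeobox genes of the same ANTP class outside the clusters were counted for comparison. Of 47 measured, 14 (29.8%) were above background on all 6 arrays and 16 (34.0%) on none, beside 66.1% and 9.29% of all genes. In NFFSE 1 was called higher and 2 lower, beside 11.1% and 15.4% of all genes. Dlx5, a factor of bone and limb, was 14.5-fold higher (626.3, 701.4 and 721.9 in NFFSE, 71.3, 54.5 and 26.6 in NFFS). Barx2, which is expressed in hair follicles, was 3.45-fold lower (adjusted p = 1.80e-05). Msx2, a factor of the hair matrix, was 1.59-fold lower, and its call ended in 8 of 16 settings, arrays centered on their medians included (adjusted p = 0.188).

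The flanking genes were up to the 2 nearest protein-coding genes on each side of a cluster, without those named by a Gm or LOC number. Of these 16 genes, 15 were measured. In NFFSE 5 were called lower and 0 higher, beside 15.4% and 11.1% of all genes. Snx10 and Skap2, which flank the Hoxa cluster, were 2.89-fold and 1.78-fold lower in NFFSE (adjusted p = 0.000185 and 0.00149). Calcoco1, a neighbor on the Hoxc13 side, gave 148.0, 131.3 and 132.2 in NFFSE and 340.7, 271.6 and 248.4 in NFFS, 2.08-fold lower (log2 difference -1.05, standard error 0.20, adjusted p = 0.00335). Atp5g2, on the same side, was not called (log2 difference -0.22, adjusted p = 0.169). Cbx5, on the Hoxc4 side, was 1.75-fold lower (adjusted p = 0.00632), a call that ended in 4 of 16 settings. Snx11, on the Hoxb1 side, was 1.48-fold lower, and its call ended in 9 of 16 settings, arrays centered on their medians included (adjusted p = 0.244). Evx1 and Evx2, which adjoin Hoxa13 and Hoxd13, were not called (log2 differences -1.33 and 0.15). The other neighbors not called were Hibadh, Calcoco2, Ttll6, Skap1, Smug1, Lnpk and Mtx2.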

How the data were processed

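Gene expression of bulge cells was measured on 6 Affymetrix arrays, 3 for NFFSE and 3 for NFFS medium. The deposited values are linear intensity values that the authors made with MAS5, by the submitters' processing notes, which give no version. They had scaled each array to 1 common mean after trimming 2% at either end, as was checked on the values, and their background correction and summary of probes were kept. The members and lists were chosen with earlier results of these data known.

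Of the probe sets, 64 controls were left out. The annotation lists 1 symbol for 34945, several for 932 (3 of them with Hox genes) and none for 9160, and 34741 matched RefSeq genes (GRCm38.p6) by gene number. Where a gene had several probe sets with its symbol alone, that with the highest mean was used. A model of log2 signals was fitted in limma 3.58.1 (R 4.3.3) with an intensity trend and Benjamini-Hochberg adjustment over all 18193 genes or all 45037 probe sets, at a threshold of 0.05, and was tested on simulated data. Folds are antilogs of log2 differences. A fold written as at least N-fold sets arrays of the lower medium to 22.7 where they were under it. The number of arrays limits the precision.

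Hox genes are given by array where they were above background on all 3 arrays of a medium or called. TALE cofactors and flanking genes are all accounted for, and of other lists up to 4 members with the smallest p are named. Further members, among them Ezh2, Eed, Jarid2, Foxn1, Krt82, Krt86, Hoxa13, Hoxb9, Hoxd1 and Hoxd11, were named after their values were seen, to complete a count. The replicate numbers pair the arrays, since by the series design every repeat split its cells over both media. Deviations from the group means correlated at 0.063, 0.042 and 0.037 between arrays of 1 number and at -0.039 to -0.0034 between others. Alternatives were the mean of all probe sets of a gene, arrays centered on medians, quantile normalization, 16 added to each signal, a floor at 22.7, a filter at the 40th percentile, no intensity trend, the methods' t-test, the replicate block, each array left out and, chosen after seeing the data, a fit of only genes above background on all 3 arrays of a medium.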

Additional observations from a re-analysis of the deposited data

Results flagged for a closer look

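Probe set 1421537_at is listed with both Hoxd4 and Hoxd3 and was therefore not used for either gene. It was above the highest TrpnX signal on all 3 NFFSE arrays, with a mean of 59.5 (40.8, 53.0 and 84.5), and on 2 of 3 NFFS arrays (17.6, 40.9 and 28.9), a signal outside the genes compared. The media overlapped, and the log2 difference of 1.05 with a standard error of 0.48 was not called (limma over all probe sets, adjusted p = 0.172).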

How the results depend on the processing

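Hoxc13 stayed called lower in 16 of 16 alternatives, with log2 differences of -2.65 to -2.38 and adjusted p of up to 0.00684. It has 1 probe set and all its signals were above 22.7. The mean of all probe sets and the floor therefore left its own values as they were. With the replicate block its difference was -2.58 (adjusted p = 4.19e-06), 0 Hox genes were called higher and 1 lower, and of all Hox genes, list members and flanking genes the block changed the call of Rara alone (lower, adjusted p = 0.0411). Of the 11 Hox genes given by array, Hoxc13 alone was called in the main fit. Over these genes 154 of 167 alternatives kept the direction and the side of the threshold. The 16 of Hoxc13 are among them, and the rest are of genes that stayed uncalled. Another 10 reversed the direction of an uncalled gene and 3 added a call. The count of Hox genes higher was 1 with the floor at 22.7 and with the methods' t-test (Hoxc6, adjusted p = 0.0435 and 0.0485), and the count lower was 2 with 16 added (Hoxb9, 0.0496). Leaving out 1 array gave 0 to 1 higher (Hoxd1, without NFFS replicate 2) and 1 to 2 lower (Hoxd9), and 0 to 1 Hox probe sets higher. Hoxa9 turned to 0.064 and Hoxd13 to 0.43 with the mean of all probe sets, as did Pknox2 to -0.70, and Hoxd13 to 0.083 in centered arrays and 0.072 with quantile normalization. With 1 array left out the log2 differences ran from -0.85 to 0.013 for Hoxa9, -0.072 to 0.42 for Hoxa11, -0.72 to 0.16 for Hoxd8 and -0.51 to 0.28 for Hoxd13. Centering moved the median of all genes from -0.01 to 0.19.

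Of Hox genes on all 3 NFFSE arrays, 8 were above 22.7, 14 above the TrpnX of the same array and 5 above its 40th percentile. The TrpnX signal used for NFFSE array 2 was low, at 6.45. On all 3 NFFS arrays 9 and 4 Hox genes were above 22.7 and the 40th percentile. Polycomb gave 1 higher with the mean of all probe sets, and 0 higher and 3 lower without the trend and in the t-test. Trithorax gave 0 higher with the floor, without the trend and in the t-test, 0 lower with the mean and 1 lower in the t-test. The upstream regulators gave 0 higher with the floor, without the trend and in the t-test, and 1 lower with the mean and in the t-test. Foxn1 and hair keratins gave 0 higher with the floor, without the trend and in the t-test. The ANTP class gave 2 higher without the trend and 1 lower with the mean, centered arrays and quantile normalization. Leaving out 1 array gave 0 to 1 higher for trithorax, 1 to 2 for the regulators, 0 to 1 higher and 0 to 1 lower for Foxn1 and hair keratins, and 1 to 2 in either direction for the ANTP class. The causes were not tested. Signals near 22.7 limit most Hox genes, for which a change was not detectable at this precision.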
